A study of Homo sapiens with 9 samples.

Results

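The genes described here bind, sense or move zinc: the metallothioneins MT1E, MT1F, MT1G, MT1M, MT1X and MT2A, the transcription factor MTF1, the zinc exporter SLC30A1 (ZnT1) and the importers SLC39A8 (ZIP8) and SLC39A10 (ZIP10). They were taken by gene symbol, and all 10 were found among the 36385 gene rows of the deposited table. RNA was sequenced from MG-63, a human osteosarcoma line used as an osteoblast model, on 3 titanium surfaces with 3 libraries each. The surfaces were bare Ti6Al4V (bare alloy), Ti6Al4V+TiB2 (called TiB2 below, by formula a titanium diboride) and boronized Ti6Al4V/HA (called HA coating). Cells of all 3 groups spent 7 days in osteogenic medium with dexamethasone (100 nM), ascorbic acid (50 µg/mL) and beta-glycerophosphate (10 mM), so no group was free of the glucocorticoid. The labels marked the TiB2 libraries as outside the submitters' final analysis, and left unstated whether replicates were separate cultures. The p-values therefore cover the spread between libraries, which may be technical.

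Metallothioneins are small cysteine-rich proteins that hold zinc, copper and cadmium through their thiols. Free zinc activates MTF1, which binds metal response elements in the promoters of metallothionein genes and of SLC30A1. SLC30A1 moves zinc out of the cytosol, whereas ZIP proteins bring zinc into it: SLC39A8 also carries manganese and cadmium, is a known NF-kB target, and SLC39A10 is a plasma membrane zinc importer. Metallothionein transcription also responds to glucocorticoids and oxidative stress.

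The member metallothioneins lie in a single cluster on chromosome 16 (GRCh38, coordinates of the deposited table) that spans 75.6 kb from MT2A (ENSG00000125148, chr16:56608584-56609497, plus strand) to MT1X (ENSG00000187193, chr16:56682470-56684196, plus strand). Between them lie MT1E (ENSG00000169715, chr16:56625475-56627112, plus), MT1M (ENSG00000205364, chr16:56632659-56633981, plus), MT1F (ENSG00000198417, chr16:56657731-56660698, plus) and MT1G (ENSG00000125144, chr16:56666730-56668065, minus). MTF1 (ENSG00000188786) is at chr1:37809574-37859592 on the minus strand and SLC30A1 (ENSG00000170385) at chr1:211571568-211579161 on the minus strand. SLC39A8 (ENSG00000138821) is at chr4:102251080-102431258 on the minus strand and SLC39A10 (ENSG00000196950) at chr2:195575977-195737702 on the plus strand.

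The coding sequences of the 4 metallothioneins with appreciable counts are shown because their likeness limits how far reads can be assigned to 1 of them. They come from GENCODE 29 on GRCh38, from a principal transcript of the commonest coding length in the family, from start to stop codon, with the cysteine codons (TGC or TGT) in capitals. Each has 186 bases and 61 codons before the stop, of which 20 encode cysteine.
MT2A: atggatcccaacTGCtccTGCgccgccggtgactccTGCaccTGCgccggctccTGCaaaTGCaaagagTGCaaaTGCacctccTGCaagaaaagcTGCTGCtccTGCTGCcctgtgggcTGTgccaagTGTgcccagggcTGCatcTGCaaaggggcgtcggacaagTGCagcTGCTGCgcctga
MT1E: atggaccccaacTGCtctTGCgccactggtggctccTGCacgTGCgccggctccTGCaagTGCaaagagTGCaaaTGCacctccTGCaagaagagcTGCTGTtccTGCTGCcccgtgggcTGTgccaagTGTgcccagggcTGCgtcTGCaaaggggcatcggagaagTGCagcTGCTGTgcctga
MT1X: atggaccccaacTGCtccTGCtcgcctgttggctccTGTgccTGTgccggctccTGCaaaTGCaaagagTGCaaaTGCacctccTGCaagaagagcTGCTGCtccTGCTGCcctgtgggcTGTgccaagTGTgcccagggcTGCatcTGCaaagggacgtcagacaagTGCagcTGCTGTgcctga
MT1M: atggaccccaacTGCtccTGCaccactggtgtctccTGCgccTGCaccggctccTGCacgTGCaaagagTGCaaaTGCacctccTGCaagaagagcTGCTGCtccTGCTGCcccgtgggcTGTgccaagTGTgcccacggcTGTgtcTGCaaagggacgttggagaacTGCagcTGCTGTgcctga
MT2A and MT1E differed at 14 of the 186 bases (92.5% identical), as did MT2A and MT1X, and as did MT1E and MT1M. MT2A and MT1M differed at 19 bases (89.8% identical). The annotated transcripts of each of the 21 metallothionein genes and pseudogenes were pooled by gene. Of the distinct 50-base stretches of MT2A, 3.02% occurred exactly in another of these genes, against 7.10% for MT1E, 3.64% for MT1X and 9.87% for MT1M. No 100-base stretch was shared. Near matches were not counted. Some pooled transcripts keep introns, as the longest of MT1X does with the full length of its gene, so shares over spliced RNA may differ. How reads that fit several places were counted is not given in the sources used here. Single metallothionein values therefore carry that uncertainty.

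Promoters are shown for the members with a metal response element core in every listed window, the motif that MTF1 binds. A RefSeq promoter entry (GRCh38.p14) was present for 6 of the 10 genes, and the entries lacked MT1E, MT1F, MT1G and MT1M. Each sequence is the 250 bases before the start site, 5′ to 3′ on the gene's strand, with matches to TGCACNC or TGCGCNC on either strand in capitals. The windows are chr16:56608334-56608583 (plus) for MT2A, chr16:56682220-56682469 (plus) for MT1X and chr1:211579162-211579411 (minus) for SLC30A1.
MT2A: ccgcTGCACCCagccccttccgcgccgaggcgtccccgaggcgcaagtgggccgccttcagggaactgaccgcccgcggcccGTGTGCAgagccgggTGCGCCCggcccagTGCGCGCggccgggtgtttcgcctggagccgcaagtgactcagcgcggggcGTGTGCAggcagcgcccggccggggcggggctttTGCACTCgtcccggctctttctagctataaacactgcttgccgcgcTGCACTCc
MT1X: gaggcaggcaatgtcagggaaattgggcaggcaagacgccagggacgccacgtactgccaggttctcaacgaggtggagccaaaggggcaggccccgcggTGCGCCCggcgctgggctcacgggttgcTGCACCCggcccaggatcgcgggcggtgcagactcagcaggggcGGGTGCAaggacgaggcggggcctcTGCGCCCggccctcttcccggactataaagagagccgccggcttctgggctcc
SLC30A1: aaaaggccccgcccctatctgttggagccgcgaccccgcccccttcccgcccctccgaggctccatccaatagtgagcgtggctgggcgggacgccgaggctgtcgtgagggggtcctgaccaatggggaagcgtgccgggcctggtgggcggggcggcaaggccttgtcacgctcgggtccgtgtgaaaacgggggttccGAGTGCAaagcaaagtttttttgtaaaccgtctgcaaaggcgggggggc
The MT2A window held 7 matches, the MT1X window 4 and the SLC30A1 window 1, and none of these overlapped another. Of 35116 promoter windows of the same length, 24.8% held at least 1 match and 0.370% at least 4. The windows of MTF1 and SLC39A10 held none, and of 3 start sites listed for SLC39A8 1 window held 1 match. A match is a description of the letters and not a measured binding site.

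Library totals ran from 58464306 to 72542556 counts. A pair of features of the libraries touch the results. Bare alloy replicate 1 shared the presence or absence of 22 genes with the HA libraries, and bare alloy replicates 2 and 3 shared it with the TiB2 libraries, although the labels gave all 9 libraries 1 batch. These sets of libraries are called here the library set. HA coating replicate 3 had the highest counts of MT2A, MT1E, MT1X and MT1M of all 9 libraries. Osteoblast-lineage and mesenchymal markers (6 of 6 above 1 CPM in each group; CPM are counts scaled to library size) summed to between 16130 and 17790 CPM on bare alloy, between 8274 and 8709 on TiB2 and between 5355 and 9046 on HA coating. COL1A1, COL1A2, SPARC and VIM made up nearly all of this sum, and ALPL and RUNX2 went the other way by their means. ALPL averaged 1.72 CPM on bare alloy, 12.9 on TiB2 and 11.0 on HA coating, and RUNX2 2.30, 3.65 and 3.18. The labels call MG-63 epithelial-like, and 4 epithelial markers (EPCAM, CDH1, KRT5, KRT14) summed to 0.671 to 1.54 CPM. Among T cell markers, CD3D, CD3E and LCK meet the count rule that defined the library set, so their distribution over it is no separate observation. With PTPRC and CD2 they summed to 0.384 to 5.86 CPM on bare alloy, with the lowest sum in replicate 1, 5.89 to 7.37 CPM on TiB2 and 0.112 to 0.407 CPM on HA coating, where 4 of the 5 were at 0. Of 3 endothelial markers, the cadherin CDH5 averaged 25.0 CPM on bare alloy, 3.10 on TiB2 and 2.22 on HA coating. PECAM1 did not follow it, at 6.47, 6.28 and 9.10 CPM in the same order, and VWF averaged at most 0.227 CPM in any group. The part of these marker differences in the results below was not tested, and in bulk RNA fewer cells of a type and less RNA per cell cannot be told apart.

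By deposited FPKM (fragments scaled to gene length and library size, which allows genes to be compared), MT2A stood far above the rest, at 776 ± 316 (SD over 9 libraries). MT1E followed at 25.2 ± 11.7 and MT1X at 20.5 ± 8.78 FPKM, with overlapping ranges. SLC30A1 reached 10.8 ± 2.42, MT1M 7.22 ± 2.82 and SLC39A10 6.81 ± 1.38 FPKM, and the ranges of these neighbours also overlapped. MTF1 averaged 3.23 ± 0.481 FPKM, below every SLC39A10 library, and SLC39A8 averaged 1.13 ± 0.533 FPKM, below every MTF1 library. MT1F and MT1G were at the limit of detection. MT1F had 12, 5 and 0 counts on bare alloy, 2, 8 and 0 on TiB2 and 0, 13 and 7 on HA coating. MT1G had 4, 5 and 0 counts on bare alloy, 4, 0 and 6 on TiB2 and 0, 6 and 11 on HA coating. Where the count was 0, as many as 3 counts could have been missed, which is 0.04752 to 0.04997 CPM on the unscaled totals of the libraries at 0; such floors cover counting error only. Neither passed the filter on low counts, so 8 of the 10 genes were tested and no fold change is given for these 2.

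**Figure D1:**
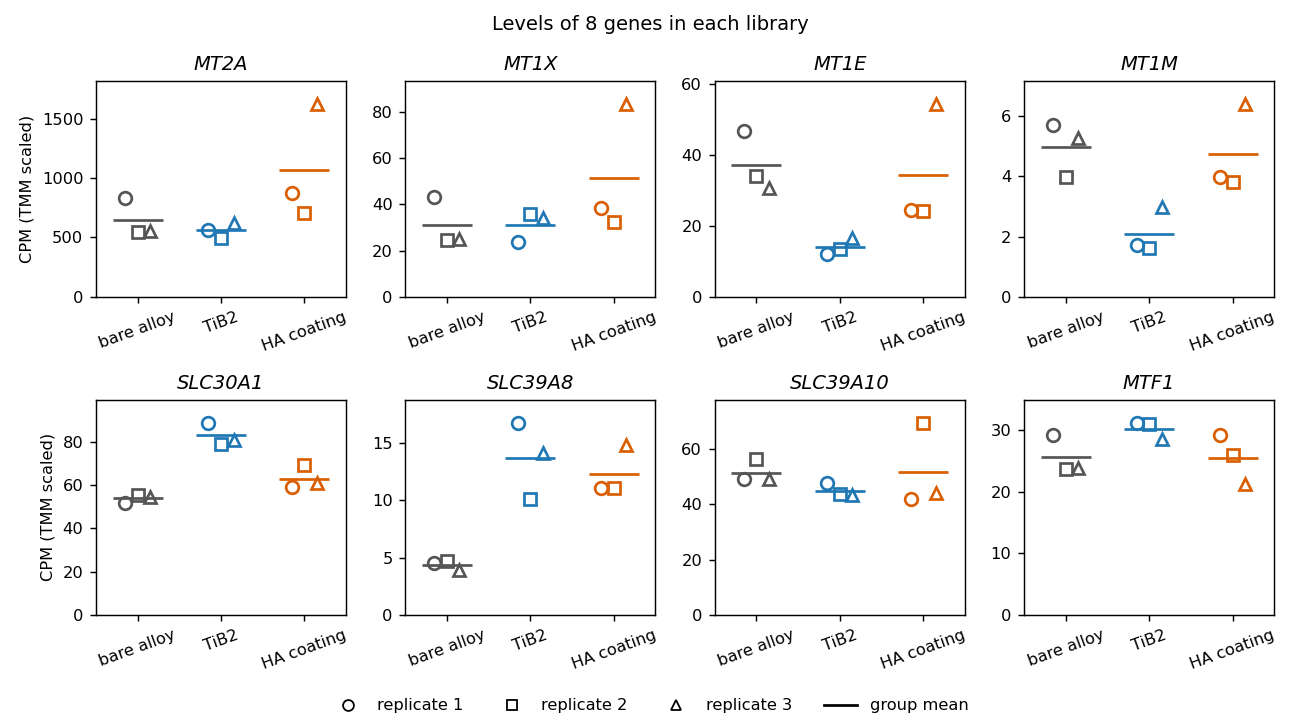
Level of each tested gene in CPM after TMM scaling (y axes start at 0), by surface, with a symbol per replicate and a line at the group mean. MT1E and MT1M are lowest in the 3 TiB2 libraries, SLC39A8 is lowest in the 3 bare alloy libraries, and HA coating replicate 3 is the highest library for all 4 metallothioneins.

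On TiB2, the metallothioneins MT1E and MT1M fell and the exporter SLC30A1 and the importer SLC39A8 rose against bare alloy, while MT2A, MT1X, MTF1 and SLC39A10 did not pass. Of the 8 tested genes, 2 rose and 2 fell, and the other 4 missed the threshold (edgeR adjusted p under 0.05). Among all 20152 genes tested, 25.1% were called, 12.9% higher and 12.2% lower. The median log2 fold change was -0.087 over the 8 genes and 0.0018 over all genes tested. The TiB2 and bare alloy libraries did not overlap for 2 genes that were higher and 3 that were lower, against 42.2% of all genes (20.7% higher and 21.5% lower).

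MT1E, a metallothionein 1 isoform, had 46.8, 34.0 and 30.6 CPM in bare alloy replicates 1, 2 and 3 and 11.9, 13.5 and 16.5 CPM in the TiB2 replicates. Every TiB2 library lay below every bare alloy library. The log2 fold change was -1.41 ± 0.17 (SE, n = 3 and 3), a 2.65-fold lower level, with an edgeR adjusted p of 0.00046. MT1M, whose gene begins 5.55 kb beyond the end of MT1E, had 5.72, 3.98 and 5.29 CPM on bare alloy and 1.72, 1.61 and 2.97 CPM on TiB2. Its groups did not overlap either, and the log2 fold change was -1.25 ± 0.27 (2.37-fold lower, edgeR adjusted p = 0.00904).

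The 2 metallothioneins at the ends of the cluster gave other values. MT2A had 830, 542 and 553 CPM on bare alloy and 560, 498 and 624 CPM on TiB2, with overlapping groups and a log2 fold change of -0.19 ± 0.16 (edgeR adjusted p = 0.439). MT1X had 43.3, 24.5 and 25.0 CPM on bare alloy and 23.5, 35.9 and 34.3 CPM on TiB2, again overlapping, with a log2 fold change of 0.018 ± 0.23 (edgeR adjusted p = 0.967). Whether MT1E fell more than MT2A or MT1X was examined only as ratios within each library. For every 100 counts of MT2A there were 5.53 to 6.27 counts of MT1E in the bare alloy libraries and 2.12 to 2.72 in the TiB2 libraries. The same ratio for MT1M was 0.690 to 0.955 on bare alloy and 0.306 to 0.476 on TiB2, so neither pair of ranges overlapped. For MT1X it was 4.51 to 5.22 and 4.20 to 7.21, which overlapped. By FPKM, MT1E was 1.77 to 2.28 times MT1X in the bare alloy libraries and 0.619 to 0.829 times MT1X in the TiB2 libraries, so the order of the 2 genes was reversed.

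**Figure D2:**
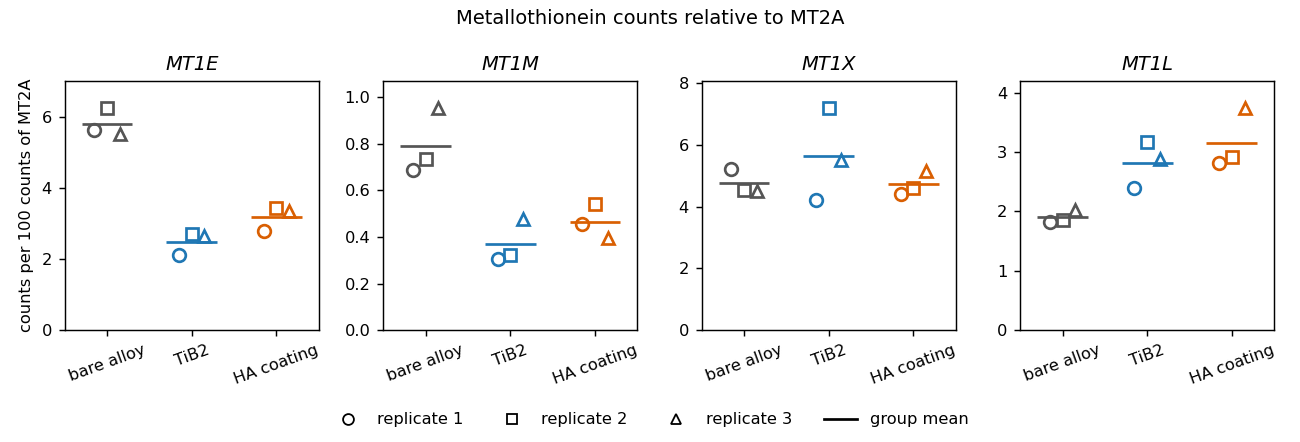
Counts of MT1E, MT1M, MT1X and the pseudogene MT1L per 100 counts of MT2A in the same library (y axes start at 0), with a symbol per replicate and a line at the group mean. The MT1E and MT1M ratios are highest in the 3 bare alloy libraries, the MT1L ratio is lowest there, and the MT1X ratios overlap.

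SLC30A1, which exports zinc across the plasma membrane, had 51.7, 55.5 and 54.6 CPM on bare alloy and 88.8, 78.8 and 81.0 CPM on TiB2. The lowest TiB2 library exceeded the highest bare alloy library, and the gene rose 1.54-fold (log2 fold change 0.62 ± 0.074, edgeR adjusted p = 0.000356). SLC39A8, the importer of zinc and manganese, had 4.50, 4.74 and 3.90 CPM on bare alloy and 16.8, 10.1 and 14.1 CPM on TiB2. It rose 3.12-fold without overlap of the groups (log2 fold change 1.64 ± 0.20, edgeR adjusted p = 0.00035). SLC39A10 had 49.1, 56.4 and 49.2 CPM on bare alloy and 47.6, 43.8 and 43.5 CPM on TiB2. Every TiB2 library was lower, but the log2 fold change of -0.19 ± 0.085 did not pass (edgeR adjusted p = 0.128). MTF1, the zinc-sensing transcription factor, had 29.1, 23.6 and 23.9 CPM on bare alloy and 31.2, 30.9 and 28.5 CPM on TiB2, groups that overlapped through bare alloy replicate 1 (log2 fold change 0.24 ± 0.10, edgeR adjusted p = 0.123). Without that library the value was 0.34 and passed (edgeR adjusted p = 0.036).

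The 4 calls held when each of the 6 libraries was left out in turn. A fit with the library set as a term compares TiB2 with bare alloy replicates 2 and 3 alone, the bare alloy libraries of its set. Such a fit differs from the main one in both the term and the libraries used, and the part of each in its calls is not separated here. With the library set as a term, in a fit of all 9 libraries, SLC39A8 passed (log2 fold change 1.66, edgeR adjusted p = 0.00537) and the other 3 kept their direction without passing: MT1E at -1.21 (edgeR adjusted p = 0.0578), MT1M at -1.14 (0.0857) and SLC30A1 at 0.59 (0.0531).

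Against bare alloy, the HA coating libraries differed at SLC39A8 and, by their means, carried more MT2A and MT1X, but the latter differences did not pass and were smaller without HA coating replicate 3. Of the 8 tested genes 1 rose and 0 fell, and the other 7 missed the threshold. Among all 20117 genes tested, 9.89% were called, 5.02% higher and 4.88% lower. The median log2 fold change was 0.11 over the 8 genes and 0.015 over all genes. The groups did not overlap for 2 genes, SLC39A8 and SLC30A1, both higher, against 34.5% of all genes (17.0% higher and 17.5% lower). The bare alloy libraries are the same as in the comparison with TiB2, so the 2 comparisons are not independent.

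SLC39A8 had 11.1, 11.0 and 14.8 CPM in HA coating replicates 1, 2 and 3, each above the bare alloy libraries at 3.90 to 4.74 CPM. It rose 2.79-fold (log2 fold change 1.48 ± 0.21, edgeR adjusted p = 0.00395). The call held in all 6 leave-one-out fits, and without both bare alloy replicate 1 and HA coating replicate 3 the value was 1.36 (edgeR adjusted p = 0.0356). With the library set as a term, which compares HA coating with bare alloy replicate 1 alone, it was 1.45 and did not pass. An unnamed gene, ENSG00000248161, lies on the same strand within the SLC39A8 span and had 2 to 11 counts in the bare alloy libraries, 13 to 49 in those on TiB2 and 17 to 75 in those on HA coating, against at least 237 counts of SLC39A8 in every library.

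MT2A had 871, 704 and 1623 CPM on HA coating, against 830, 542 and 553 CPM on bare alloy. HA coating replicate 3 was the high library, bare alloy replicate 1 lay between HA coating replicates 1 and 2, and the log2 fold change was 0.72 ± 0.32 (edgeR adjusted p = 0.185). Without HA coating replicate 3 it was 0.30. MT1X had 38.4, 32.5 and 83.6 CPM on HA coating, where replicate 3 again stood apart, with a log2 fold change of 0.73 ± 0.37 (edgeR adjusted p = 0.237) and 0.20 without replicate 3. MT1E had 24.4, 24.2 and 54.4 CPM and overlapped bare alloy, with a log2 fold change of -0.12 ± 0.32 (edgeR adjusted p = 0.848) that was -0.61 without replicate 3. MT1M had 3.98, 3.82 and 6.41 CPM on HA coating (log2 fold change -0.083 ± 0.27, edgeR adjusted p = 0.877).

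On HA coating, the ratios of MT1E and MT1M to MT2A within each library were less spread than the levels of these genes. The HA coating libraries had 2.80 to 3.44 counts of MT1E per 100 counts of MT2A, below all bare alloy libraries (5.53 to 6.27) and above all TiB2 libraries (2.12 to 2.72). The MT1M ratio was 0.395 to 0.543 on HA coating, below bare alloy and overlapping TiB2. HA coating replicate 3, with the highest MT2A level of the 9, gave 3.35 for MT1E, inside the range of the other 2, and 0.395 for MT1M, the lowest of its group. MT2A took 88.0 to 91.6% of all metallothionein counts in every library.

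SLC30A1 had 59.0, 69.2 and 60.8 CPM on HA coating, all above bare alloy, with a log2 fold change of 0.22 ± 0.14 that did not pass (edgeR adjusted p = 0.363). MTF1 had 29.2, 25.9 and 21.2 CPM (log2 fold change -0.010 ± 0.18, edgeR adjusted p = 0.978). SLC39A10 had 41.9, 69.6 and 44.0 CPM, with replicate 2 alone above the bare alloy libraries (log2 fold change 0.0021 ± 0.21, edgeR adjusted p = 0.996). The sign of the last 2 values changed with the scaling or fit, so no direction is given for them.

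**Figure D3:**
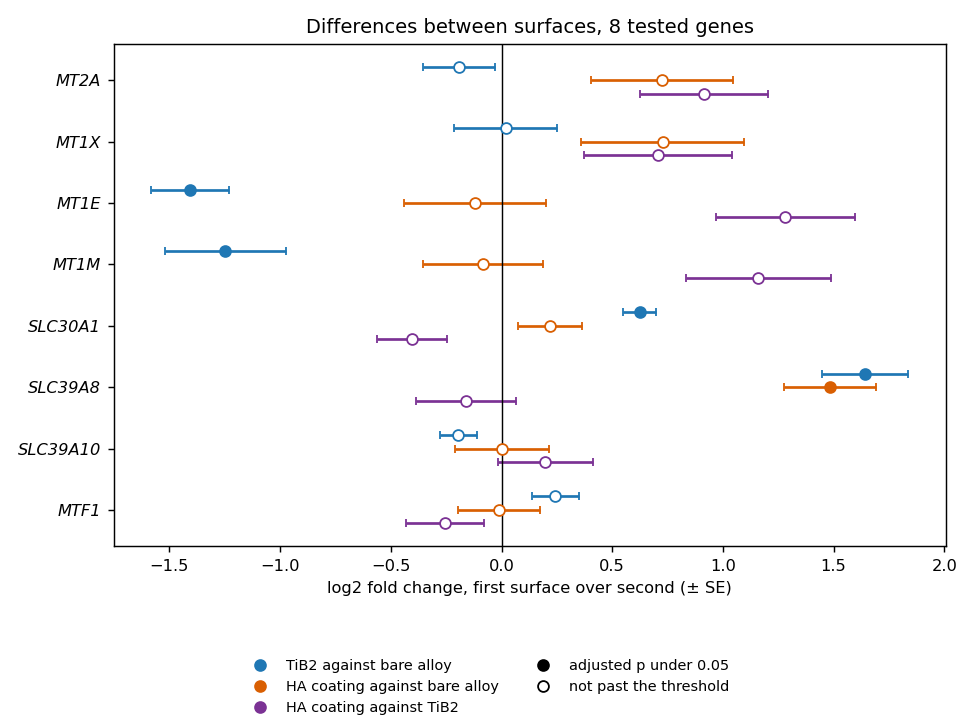
Log2 fold change of each tested gene (x axis, first surface over second, bars ± SE) in the 3 comparisons. Filled points passed an edgeR adjusted p of 0.05: MT1E, MT1M, SLC30A1 and SLC39A8 for TiB2 against bare alloy, SLC39A8 for HA coating against bare alloy, and none for HA coating against TiB2.

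Between HA coating and TiB2, 0 of the 8 tested genes passed edgeR's test, 4 had an unadjusted p under 0.05, and DESeq2 called 2 (MT1E and MT2A) and limma on FPKM 0. Among all 20086 genes, edgeR called 0.632% by adjusted p, 0.179% higher and 0.453% lower on HA coating. DESeq2 called more genes in all, so that share is no background for its 2 calls. The share of all genes at an unadjusted p under 0.05 was not computed, so counts at that threshold, here and below, have no background. The groups did not overlap for MT2A, MT1E and MT1M, which were higher on HA coating, and SLC30A1, which was lower, against 18.1% of all genes (8.7% higher and 9.45% lower). MT1E differed by 1.28 ± 0.31 on the log2 scale (edgeR adjusted p = 0.136) and passed without HA coating replicate 1 (1.47, edgeR adjusted p = 0.0407). MT1M differed by 1.16 ± 0.33 (edgeR adjusted p = 0.223), MT2A by 0.91 ± 0.29 (0.288) and SLC30A1 by -0.40 ± 0.16 (0.380). SLC39A8, which had risen on both surfaces, differed by -0.16 ± 0.23 (edgeR adjusted p = 0.793), MT1X by 0.71 ± 0.34 (0.430), MTF1 by -0.26 ± 0.18 (0.570) and SLC39A10 by 0.20 ± 0.21 (0.731). The median over the 8 genes was 0.45, and 0.019 over all genes. Here the surfaces and the library set cannot be told apart, since all HA coating libraries belong to one set and all TiB2 libraries to the other.

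The MT2A levels can also be set out by library set. The 4 libraries of the first set, bare alloy replicate 1 and the HA coating libraries, had 704 to 1623 CPM, and the other 5 libraries had 498 to 624 CPM. Of the 10 genes of metal and oxidant stress, 3 also did not overlap between the sets, HMOX1 (heme oxygenase), HSPA1A (a heat shock protein) and its near-identical copy HSPA1B, and the other 7 overlapped, among them GCLM and TXNRD1, which were highest on TiB2. The share of all genes that did not overlap between the sets was not computed, so neither MT2A nor these 3 of 10 can be set against it. All HA coating libraries are in one set and all TiB2 libraries in the other. The split is therefore not separate from HA coating against TiB2, where MT2A, HMOX1, HSPA1A and HSPA1B did not overlap either. HMOX1 and HSPA1A are given here because of their values. HMOX1 stood at 95.2 CPM in bare alloy replicate 1 and 89.4 to 99.5 CPM on HA coating, against 16.1 and 19.3 CPM in the other bare alloy libraries and 49.3 to 66.4 CPM on TiB2. HSPA1A stood at 149 CPM in bare alloy replicate 1, 113 to 139 on HA coating, 64.8 and 67.8 in the other bare alloy libraries and 61.2 to 65.4 on TiB2. The part of the library set in the MT2A values was examined only by the fit with that term. It gave 0.36 for HA coating and 0.033 for TiB2 (edgeR adjusted p = 0.976) against bare alloy, and neither passed. There HA coating is compared with bare alloy replicate 1 alone, so the fit cannot tell the set from that library.

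Of the other metallothionein genes, none of the protein-coding ones was tested: MT1A had 0 counts in 7 libraries, 4 in HA coating replicate 2 and 35 in replicate 3, and MT3 had 3 counts in a single library. The pseudogene MT1L (chr16:56617423-56618832), between MT2A and MT1E, had 15.2, 10.0 and 11.2 CPM on bare alloy, 13.4, 15.8 and 18.0 CPM on TiB2 and 24.6, 20.5 and 60.8 CPM on HA coating. It rose 2.89-fold on HA coating against bare alloy (log2 fold change 1.53 ± 0.39, edgeR adjusted p = 0.0407). Without HA coating replicate 3 the log2 fold change was 0.90 (edgeR adjusted p = 0.0445), and the call was lost without any 1 of the 3 bare alloy libraries (edgeR adjusted p = 0.0740, 0.155 and 0.152 without replicates 1, 2 and 3). MT1L counts per 100 MT2A counts were 1.83 to 2.03 on bare alloy, against 2.40 to 3.17 on TiB2 and 2.82 to 3.75 on HA coating, the opposite order to MT1E for bare alloy against the other surfaces.

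Other zinc transporters were taken from the full ZnT and ZIP families. On TiB2, 2 of 7 tested ZnT genes rose and 0 fell, where 12.9% of all genes were called higher and 25.1% in either direction. That count is near the background. The 2 genes were SLC30A1 and SLC30A7, which loads zinc into the Golgi (24.2 CPM on bare alloy and 30.8 on TiB2, log2 fold change 0.35 ± 0.092, edgeR adjusted p = 0.0209). The SLC30A7 call was lost without bare alloy replicate 2 or 3 or TiB2 replicate 2. Of 11 tested ZIP genes, SLC39A8 and SLC39A14 rose and SLC39A13 fell on TiB2, 3 called genes where 25.1% of all genes were called, so the count itself is near the background. The TiB2 libraries lay below all bare alloy libraries for 7 of the 11 ZIP genes and above them for 2, against 21.5% and 20.7% of all genes. Of those 7, SLC39A13 alone passed edgeR's test. For the 7 ZnT genes they lay below for 0 and above for 2. SLC39A14, an importer of zinc, manganese and iron that is abundant in liver, had 154, 150 and 164 CPM on bare alloy and 315, 320 and 298 CPM on TiB2, a 1.99-fold rise (log2 fold change 1.00 ± 0.068, edgeR adjusted p = 1.42e-05). SLC39A13, a zinc carrier of intracellular vesicles that connective tissue requires, fell from 75.1 to 55.3 CPM (log2 fold change -0.44 ± 0.081, edgeR adjusted p = 0.00386). The median log2 fold change was -0.059 over the ZnT genes and -0.15 over the ZIP genes.

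On HA coating, 0 of 6 tested ZnT genes passed edgeR's test (0 at an unadjusted p under 0.05). Of 11 ZIP genes 1 rose, SLC39A8, where 5.02% of all genes were called higher and 9.89% in either direction. The HA coating libraries lay above all bare alloy libraries for 3 of the 6 ZnT genes and below them for 0. For the 11 ZIP genes they lay above for 2 and below for 2, against 17.0% and 17.5% of all genes. SLC39A14 had 286, 180 and 263 CPM on HA coating, all above bare alloy, with a log2 fold change of 0.63 ± 0.20 (edgeR adjusted p = 0.0794) that passed without HA coating replicate 2 (0.81, edgeR adjusted p = 0.0282). The median was 0.25 over the ZnT genes and 0.0021 over the ZIP genes. Between HA coating and TiB2, 0 of 6 ZnT and 0 of 11 ZIP genes passed edgeR's test (1 and 0 at an unadjusted p under 0.05).

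**Figure D4:**
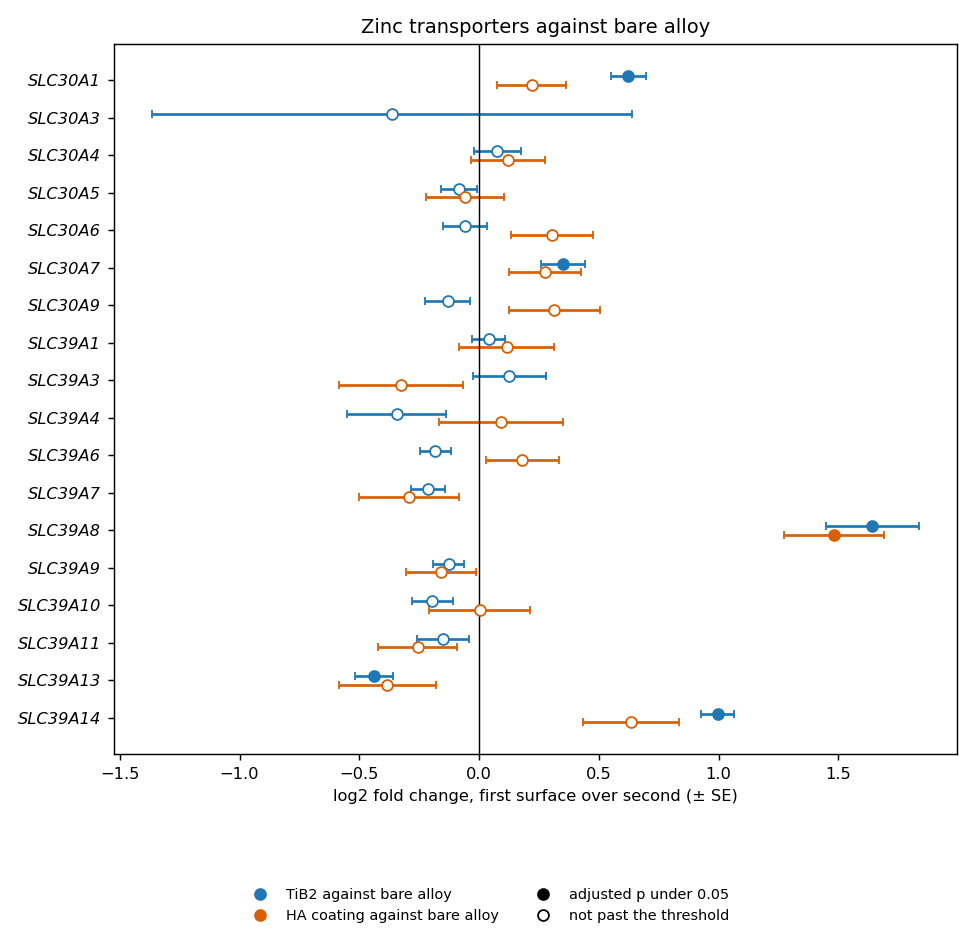
Log2 fold change against bare alloy (x axis, bars ± SE) of the tested ZnT (SLC30A) and ZIP (SLC39A) genes on TiB2 and HA coating; SLC30A3 was tested on TiB2 alone. Filled points passed an edgeR adjusted p of 0.05: SLC30A1, SLC30A7, SLC39A8 and SLC39A14 were higher and SLC39A13 lower on TiB2, and SLC39A8 was higher on HA coating.

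Genes of neighbouring metal pathways gave the following counts. Of all genes, 12.9% were called higher and 12.2% lower on TiB2, and 5.02% and 4.88% on HA coating. The lists were chosen with earlier results of these data known, so a count above those shares is a description and no independent evidence. Of 9 iron and manganese genes, 7 rose and 1 fell on TiB2, with FTH1 (ferritin heavy chain, log2 fold change 1.11) and TFRC (transferrin receptor, 0.77) among those that rose and the iron exporter SLC40A1 (-0.91) the one that fell; leaving out 1 library gave 4 to 6 that rose, and the SLC40A1 call was lost without TiB2 replicate 2 or bare alloy replicate 2 or 3 (edgeR adjusted p = 0.0568, 0.0603 and 0.0713). On HA coating 1 of 9 rose, SLC25A28 (0.69), and 0 to 2 did with 1 library left out. Of 10 copper genes, SLC31A1 (the copper importer, 0.79) and SCO1 (a copper chaperone of mitochondria, 0.43) rose on TiB2, also in each leave-one-out fit, a share of the list below the 25.1% of all genes called in either direction. Both also rose on HA coating (0.57 and 0.62), a count that was 0 without HA coating replicate 2 or any 1 bare alloy library and 1 without HA coating replicate 3. Without HA coating replicate 1, 4 copper genes were called higher and ATP7B, a copper-exporting ATPase, lower. The shares of all genes given here and below are for fits of all 6 libraries. Leave-one-out fits called more or fewer genes in all, so those shares are no background for their counts. Of 10 genes of metal and oxidant stress, 5 rose on TiB2, led by GCLM (glutathione synthesis, 1.46), SLC7A11 (cystine import, 1.22) and TXNRD1 (thioredoxin reductase, 1.19), and DNAJB1, a heat shock co-chaperone, fell. On HA coating 1 of 10 rose, GCLM (0.60), and 0 to 3 did with 1 library left out. Between HA coating and TiB2, HSPA1A (0.98) and HSPA1B (1.02) were called higher on HA coating, both lost in 4 of the 6 leave-one-out fits, and no copper or iron and manganese gene passed edgeR's test (1 of each list at an unadjusted p under 0.05).

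Of 8 NF-kB responders, among them SOD2, ICAM1 and BIRC3, all 8 rose on TiB2, against 12.9% of all genes, and 6 on HA coating, against 5.02%, the latter 2 to 6 with 1 library left out. Their median log2 fold change was 1.71 on TiB2 and 1.22 on HA coating. This list too was chosen with earlier results of these data known, so its counts are a description and no independent evidence of an excess. Of the glucocorticoid responders 2 of 9 rose on TiB2, where 25.1% of all genes were called, FKBP5 (0.70) and PER1 (0.57, lost in 4 of the 6 leave-one-out fits), and 0 of 8 passed edgeR's test on HA coating (2 at an unadjusted p under 0.05). Between HA coating and TiB2, 0 genes of either list passed edgeR's test (3 NF-kB responders and 1 glucocorticoid responder at an unadjusted p under 0.05).

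The genes whose levels followed 3 of the zinc genes most closely were ranked by Pearson's r of log2(CPM + 1) over the 9 libraries, among 6230 genes, as a description; the points share libraries and surfaces. For MT2A they were S100A11 (r = 0.971), TMSB10 (0.970) and PPP1R11 (0.970). For SLC39A8 they were DRAM1 (0.993), IL1B (0.992) and UBQLN1 (0.987), and IL1B averaged 4.35 CPM on bare alloy, 119 on TiB2 and 90.9 on HA coating. For SLC30A1 they were TXNRD1 (0.972), ACSL3 (0.971) and PXK (0.967), and TXNRD1 averaged 358 CPM on bare alloy, 817 on TiB2 and 540 on HA coating.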

How the data were processed

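The authors deposited, per the file headers, raw counts and FPKM values for each gene in 9 libraries. The submitters' processing notes name HISAT2 2.2.1, featureCounts 2.0.1, StringTie 2.1.4, cutadapt 2.10, limma and GRCh38 without saying what each did; strand use is not given in the sources used here. Groups and replicate numbers came from the labels. Each comparison used its own 6 libraries: edgeR 4.0.16 (R 4.3.3), filterByExpr, TMM scaling, quasi-likelihood test, two-sided, Benjamini-Hochberg adjustment over all genes tested, threshold 0.05. The standard error is the log2 fold change divided by the square root of F. Levels are CPM after TMM scaling over 9 libraries, from 58464306 to 72542556 counts.

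Alternatives were DESeq2 1.42.0, limma 3.58.1 on log2(FPKM + 1) and log2(FPKM + 0.1), upper-quartile scaling, no filter, a mean FPKM of at least 5, a single fit of all 9 libraries, a GC and length offset (mgcv 1.9.3), the replicate block, the library set as a term, and leaving out each library. The library set comes from 22 genes with at least 20 counts in every library of one side and at most 3 in every library of the other. As a term it leaves HA coating compared with bare alloy replicate 1 alone, and TiB2 with replicates 2 and 3. One alternative, without 2 libraries, was chosen after seeing the data. The test was checked on simulated counts for HA coating against bare alloy alone. These were drawn with edgeR's own model and estimates of spread, so the check cannot show how the test does where that model fails.

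The members and lists were chosen with earlier results of these data known. All 10 genes are named; of the lists, at most 3 called genes per list and comparison, with a mean of at least 1 CPM in the higher group; and the 3 genes most like MT2A, SLC39A8 and SLC30A1 (mean FPKM of at least 5). HMOX1, HSPA1A across libraries, SLC39A14 on HA coating, and the endothelial and osteoblast-lineage markers given singly were named after their values were seen. Promoters are from RefSeq and coding sequences from GENCODE 29, read with Python 3.11.15 and pandas 2.3.3.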

Additional observations from a re-analysis of the deposited data

How the results depend on the processing

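Of 453 values of the tested genes and MT1L under an alternative, 397 kept their direction and side of the threshold, 10 lost and 11 gained a call, and 35 changed sign, none of them a called value. The count of called genes for HA coating against bare alloy was 0 with a mean FPKM of at least 5, where SLC39A8 was not tested, and 0 once the library set entered the fit, where that of TiB2 against bare alloy was 1; the cause was not tested. For HA coating against TiB2 it was 2 with DESeq2, 1 with the replicate block, 1 with the GC and length offset and 1 with both. With 1 library left out the counts were 1 to 1, 4 to 5 and 0 to 1 for HA coating against bare alloy, TiB2 against bare alloy and HA coating against TiB2.

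Of the values that changed sign, MTF1 on HA coating against bare alloy was 0.0039 with DESeq2, 0.0082 and 0.0054 with limma at pseudocounts of 1 and 0.1, and 0.22 with the GC and length offset, with that offset and the block, and without 2 libraries. SLC39A10 there was -0.054 with upper-quartile scaling, -0.094 with a mean FPKM of at least 5, -0.0050 and -0.010 with limma at pseudocounts of 1 and 0.1, -0.033 with the replicate block, -0.13 with the offset and -0.14 with both. On TiB2 against bare alloy, MT2A was 0.033 in the fit with a library set term, and MT1X was -0.029 with upper-quartile scaling, -0.024 with a mean FPKM of at least 5 and -0.028 with the offset. Leaving out 1 library gave -0.61 to 0.084 for MT1E, -0.36 to 0.052 for MT1M, -0.11 to 0.11 for MTF1 and -0.26 to 0.14 for SLC39A10 on HA coating against bare alloy. It gave -0.30 to 0.029 for MT2A and -0.13 to 0.33 for MT1X on TiB2 against bare alloy, and -0.34 to 0.0025 for SLC39A8 and -0.079 to 0.33 for SLC39A10 between HA coating and TiB2.

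The replicate numbers showed no sign of pairing the libraries: 1 of 9 same-number correlations exceeded 0.1, and they ran from -0.162 to 0.142. With 3 libraries per group such a check cannot exclude a pairing. With the replicate block 2 of 27 calls changed, MT1E between HA coating and TiB2 gained (adjusted p = 0.0343) and MT1L on HA coating lost (1.38, adjusted p = 0.0511). Over all genes, HA coating against bare alloy called 1990, 3324 with DESeq2, 1093 without a filter, 1148 with a mean FPKM of at least 5, 3518 in 1 fit of 9 libraries, 3520 with the offset, 704 with the library set, 756 without 2 libraries and 598 to 4185 with 1 library left out. TiB2 against bare alloy called 5059, 2859 with a mean FPKM of at least 5, 2132 in 1 fit and 1173 with the library set. HA coating against TiB2 called 127, 490 with DESeq2, 35 without a filter, 38 with a mean FPKM of at least 5, 67 in 1 fit, 195 with the block and 49 to 1224 with 1 library left out. Depth limits MT1F and MT1G, at 0 to 13 counts.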
